A study of Homo sapiens with 6 samples.

Results

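The 6 genes described here encode enzymes that make nonessential amino acids: asparagine synthetase (ASNS), argininosuccinate synthetase (ASS1), pyrroline-carboxylate reductase (PYCR1), ornithine aminotransferase (OAT), cystathionine beta-synthase (CBS) and cystathionine gamma-lyase (CTH). They were chosen by name, with their response to ATF4 knockdown already known from these arrays, and are 6 of the 14884 genes that have a named array feature. Each had 1 named feature, so no choice among features was needed and none was lost to a filter. The cells were MOLM14, an established line of human acute myeloid leukaemia with monocytic features with an internally duplicated FLT3 and a rearranged KMT2A gene, grown in RPMI with serum. They were electroporated with 70 nM of an siRNA directed at ATF4 (siATF4, 3 arrays) or of a pool of non-targeting siRNA (siCTRL, 3 arrays). All 6 arrays thus come from 1 cell line that underwent electroporation, and neither the time after transfection nor the ATF4 protein level was given in the sources used here. The labels call the arrays of a group technical replicates, so the spread between them may be technical.

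ATF4 is the transcription factor through which the integrated stress response, set off by amino acid shortage among other stresses, reaches its target genes. It binds composite C/EBP-ATF response elements together with a C/EBP-family partner. Enzymes of amino acid synthesis, ASNS above all, are textbook targets of it. Asparagine supply matters in leukaemia because asparaginase, which breaks down circulating asparagine, is a standard drug for the lymphoblastic form, and arginine supply because many leukaemia cells hold little ASS1 and take up arginine from outside.

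Levels are given on the log2 scale of the deposited values, and differences are siATF4 minus siCTRL. Array medians over all features lay between 3.88 and 3.96 and upper quartiles between 5.34 and 5.46, which gives a guide to which levels are dim. ATF4 itself read 7.72, 7.88 and 8.14 on siATF4 replicates 1, 2 and 3 and 8.67, 8.64 and 8.85 on siCTRL replicates 1, 2 and 3. The groups did not overlap, and the difference of -0.80 (SE 0.14, 3 arrays per group) left 57.4% of the control level (exact two-sided permutation p = 0.1, the smallest that 3 arrays against 3 allow). Of the 11 myeloid and monocytic markers listed, 7 were measured, and their mean level lay between 7.52 and 8.17 on the siATF4 arrays and between 7.50 and 8.41 on the siCTRL arrays. That mean covers unlike levels. The monocyte marker CD14 read only 3.22 to 4.18, around the array medians. CSF1R read 5.05 to 8.18, MPO 5.58 to 10.45, SPI1 7.78 to 8.52, FLT3 8.19 to 9.67, LYZ 8.33 to 10.87 and CD68 9.27 to 11.18. Of 6 T and NK cell markers 3 were measured, with CD2 and CD8A between 3.92 and 4.20 on all arrays, close to the array medians, and NKG7 between 6.61 and 7.62. The 1 measured B cell marker, PAX5, lay between 3.76 and 6.12, the 1 measured erythroid and megakaryocytic marker, PF4, between 4.99 and 5.28, and the mean of 3 measured stromal and epithelial markers between 4.51 and 5.11, with EPCAM at 3.86 to 4.08, KRT8 at 4.31 to 5.03 and PECAM1 at 5.26 to 6.82. The siATF4 replicate 1 array stood apart for some markers, in both directions. The granule enzyme MPO read 5.58 there and 8.45 to 10.45 on the other arrays, and PAX5 3.76 there and 5.28 or more elsewhere. CSF1R was higher there, at 8.18 against 5.05 to 6.57, and so was CD68, at 11.18 against 9.27 to 10.27. LYZ and FLT3 lay there within the range of the other arrays. LYZ was low on both arrays of replicate number 3, at 8.33 with siATF4 and 8.51 with siCTRL, against 10.37 to 10.87 elsewhere. The siCTRL replicate 3 array held the highest level of 4 of the 6 enzymes. The difference of each of the 6 enzymes is therefore also given without siATF4 replicate 1 or siCTRL replicate 3 where that clearly moves it. For the list medians this is done in the closing section. Other single genes are given on all arrays only, and some of them lean on 1 of these arrays.

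In every case the group mean of the enzyme was lower with siATF4: 6 of 6, where 46.2% of all tested genes had a lower mean. The differences ran from -0.91 for ASS1 to -0.14 for PYCR1, with a median of -0.40, against a median of 0.01 over all tested genes. For 3 of them, ASS1, CBS and PYCR1, the highest siATF4 array was under the lowest siCTRL array, as it was for 2.59% of all tested genes. For 5 of them, all but CTH, the siATF4 array was the lower one in each replicate number, as for 9.20% of all tested genes. In RNA of whole cultures, fewer cells that express a gene and less of its RNA per cell cannot be told apart. These counts describe genes picked with this comparison in view, and no test was made on them. By limma across all 14884 genes, 0 (0%) passed an adjusted p of 0.05 in either direction, so none of the 6 was called. An unadjusted p below 0.05 was reached by 218 genes in all (1.46%), and by 464 (3.12%) with the replicate number as a block, where again 0 passed the adjustment.

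**Figure D1:**
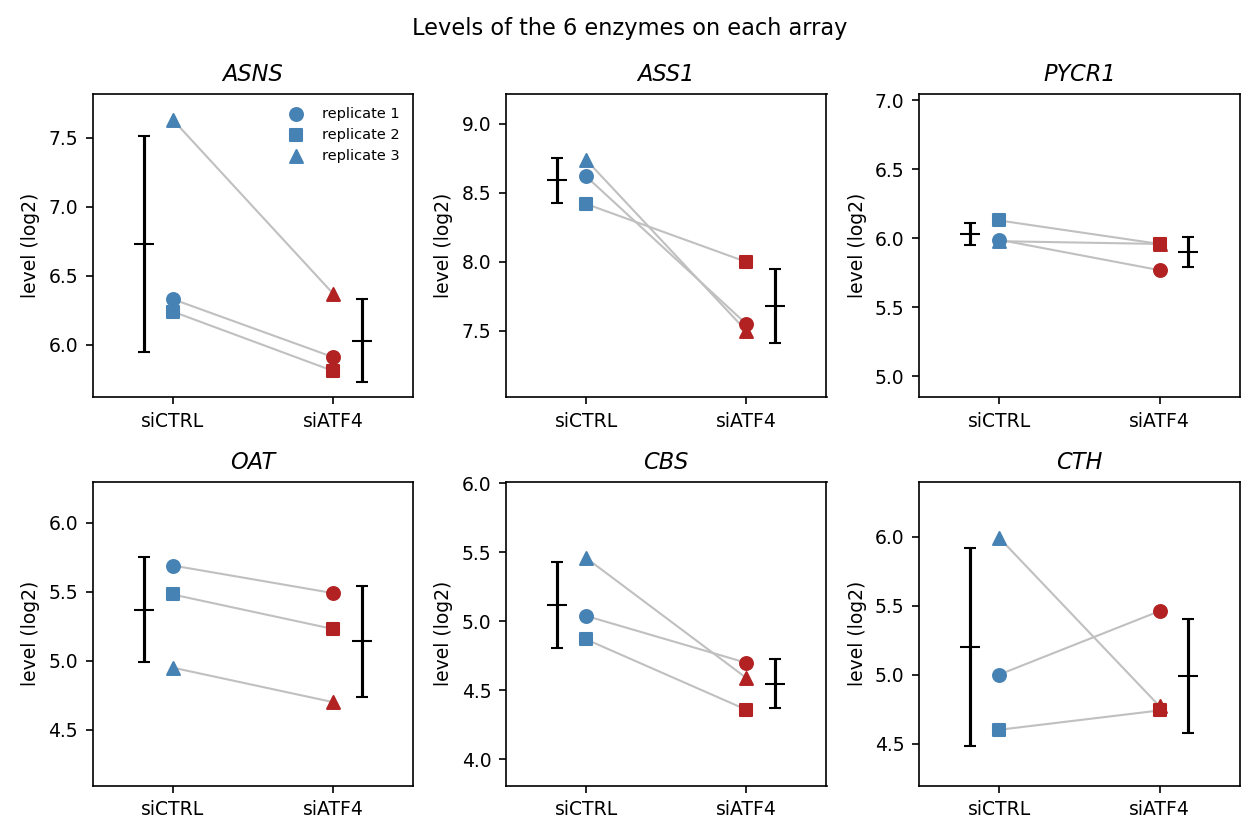
Deposited log2 level of each enzyme on the 3 siCTRL arrays (blue) and the 3 siATF4 arrays (red), with marker shapes for the replicate number and grey lines joining equal numbers. Black bars are group means ± SD (n = 3), and every panel spans the same log2 range, without starting at 0. ASS1, CBS and PYCR1 separate by group, ASNS and CTH carry a high point at siCTRL replicate 3, and OAT shifts down in parallel.

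Asparagine synthetase, which builds asparagine from aspartate and glutamine, is the member with the best described ATF4-responsive promoter. The 250 bases before the start of one of its RefSeq transcripts are shown because they hold the only match to the core of the C/EBP-ATF response element among the 5 enzymes that could be searched (all but PYCR1). The sequence is from chr7:97872409-97872658, minus strand, GRCh38.p14, upstream of that start, and the capitals mark the match to TGATGNAA, 68 to 61 bases before the start.
ASNS: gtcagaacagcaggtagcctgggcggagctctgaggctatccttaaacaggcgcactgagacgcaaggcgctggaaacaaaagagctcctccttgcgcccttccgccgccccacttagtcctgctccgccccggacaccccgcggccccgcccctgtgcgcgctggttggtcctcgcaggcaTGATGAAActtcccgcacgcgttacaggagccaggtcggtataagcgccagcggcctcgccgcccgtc
In the literature these letters belong to the nutrient-sensing response element of the ASNS promoter. Of the 6 enzymes 5 matched the promoter table, with 9 windows of 300 bases, each from 250 bases before to 50 after a transcript start. TGATGNAA, searched on both strands, was in 1 of those 5 genes. It was in 3.62% of all 35116 windows of that length and in 4.46% of the 27305 genes they belong to. The windows of ASS1, OAT, CBS and CTH did not hold these letters. The full cAMP response element TGACGTCA reads the same on both strands and cannot overlap that core as written. It was in none of the 5 genes, in 1.85% of all windows and in 2.25% of the genes they belong to.

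ASNS read 6.33, 6.24 and 7.63 on siCTRL replicates 1, 2 and 3 and 5.91, 5.81 and 6.37 on siATF4 replicates 1, 2 and 3. The siCTRL replicate 3 array was far above the rest, and the siATF4 replicate 3 array was the highest of its group and just above siCTRL replicates 1 and 2, so the groups overlapped. The means were 6.73 ± 0.78 and 6.03 ± 0.30 (SD, n = 3 each), a difference of -0.70 (SE 0.38), or 61.5% of the control level. Only 1.53% of all tested genes had an SD as large among the siCTRL arrays. By replicate number the difference was -0.43, -0.42 and -1.26. Numbers 1 and 2 thus gave almost the same value, and number 3 a larger one from a higher starting level. With the replicate number as a block the SE of ASNS was 0.19. Without siCTRL replicate 3 the ASNS difference was -0.25.

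Argininosuccinate synthetase joins citrulline to aspartate and sets the pace of arginine synthesis. On control replicates 1, 2 and 3, ASS1 read 8.62, 8.42 and 8.74, and on the siATF4 ones 7.55, 8.00 and 7.50. The groups stood 0.42 apart at their nearest points, and siATF4 replicate 2 lay closest to the controls. The means were 8.59 ± 0.16 and 7.68 ± 0.27 (SD, n = 3 each), a difference of -0.91 (SE 0.17) that left 53.3% of the control level. It was the lowest difference of the 6 and the 50th lowest of 14884, with ATF4 at place 69, ASNS at 90 and CBS at 145. By number ASS1 differed by -1.06, -0.42 and -1.24, and by -0.82 to -1.06 with each array left out in turn. For the same numbers ATF4 mRNA differed by -0.94, -0.76 and -0.70 (SE with the block 0.11), and any relation to the ASS1 differences was not tested. RefSeq names 14 pseudogenes after ASS1, 5 after ASNS and 1 after OAT. None of these has a named feature here, and how far their transcripts add to the signal of the parent gene was not tested.

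CBS condenses homocysteine with serine to cystathionine, the entry step of transsulfuration, and CTH splits cystathionine to release cysteine. CBS read 5.04, 4.87 and 5.46 on siCTRL replicates 1, 2 and 3 and 4.70, 4.36 and 4.59 on siATF4 replicates 1, 2 and 3. Every siATF4 array was below every siCTRL array, by 0.17 at the nearest points. The means were 5.12 ± 0.31 and 4.55 ± 0.18 (SD, n = 3 each), a difference of -0.57 (SE 0.18) or 67.1% of the control level. By number it was -0.34, -0.51 and -0.88, and it ranged from -0.41 without siCTRL replicate 3 to -0.70 without siCTRL replicate 2. The CBS levels lay above the array median on every array, below the upper quartile on 5 arrays and just above it on siCTRL replicate 3. A lower mean level was found for 54.9% of all tested genes, so CBS was of middling level. RefSeq lists CBSL as a synonym of CBS, and whether the feature also takes up signal annotated under that name was not tested.

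CTH, the next enzyme of the same route, had another pattern. It read 5.00, 4.60 and 5.99 on siCTRL replicates 1, 2 and 3 and 5.46, 4.74 and 4.77 on siATF4 replicates 1, 2 and 3. The highest reading was on siCTRL replicate 3 and the lowest on siCTRL replicate 2, so the control group spanned the whole siATF4 group. The means were 5.20 ± 0.72 and 4.99 ± 0.41 (SD, n = 3 each), a difference of -0.21 (SE 0.38). By number CTH differed by 0.45, 0.14 and -1.22, so it was higher with siATF4 in numbers 1 and 2 and lower in number 3. The sign of the mean rested on 1 array: without siCTRL replicate 3 the CTH difference was 0.19. Dropping siATF4 replicate 1 gave -0.44 and dropping siCTRL replicate 2 gave -0.51, while dropping siATF4 replicate 2 or 3 gave -0.08 or -0.10. Whether CTH differed with siATF4 could not be read from these arrays. CBS and CTH were not tested against each other, since both were chosen on this contrast.

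OAT, the mitochondrial enzyme that interconverts ornithine and the common precursor of proline and glutamate, moved more between replicate numbers than between groups. It read 5.69, 5.48 and 4.95 on siCTRL replicates 1, 2 and 3 and 5.49, 5.23 and 4.70 on siATF4 replicates 1, 2 and 3. Both groups were highest in number 1 and lowest in number 3, and they overlapped. The means were 5.37 ± 0.38 and 5.14 ± 0.40 (SD, n = 3 each), a difference of -0.24 (SE 0.26). The difference by number was -0.21, -0.25 and -0.25, with an SD of 0.03. An SD of the 3 differences as small as this was seen for 1.41% of all tested genes. The means of both arrays of numbers 1, 2 and 3 were 5.59, 5.35 and 4.83. With the replicate number as a block the SE of OAT was 0.10, against 0.26 without it. Leaving out an array breaks a pair, and the OAT difference then hung on which one: it was -0.02 without siATF4 replicate 3, -0.41 without siATF4 replicate 1, -0.08 with siCTRL replicate 1 dropped and -0.45 with siCTRL replicate 3 dropped.

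PYCR1 carries out the last step of proline synthesis in mitochondria. It read 5.99, 6.13 and 5.98 on siCTRL replicates 1, 2 and 3 and 5.77, 5.96 and 5.96 on siATF4 replicates 1, 2 and 3. The groups did not overlap, but the nearest arrays were only 0.01 apart, against 0.17 for CBS and 0.42 for ASS1. With quantile normalization 2 of the 6 enzymes were without overlap in place of 3, and which ones was not recorded. The means were 6.03 ± 0.08 and 5.90 ± 0.11 (SD, n = 3 each), a difference of -0.14 (SE 0.11), or 91.0% of the control level. It was -0.22, -0.17 and -0.02 by number, -0.07 without siATF4 replicate 1 and -0.09 without siCTRL replicate 2. PYCR1 was the flattest of the 6, and 81.7% of all tested genes had a larger or equal SD among the siCTRL arrays.

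**Figure D2:**
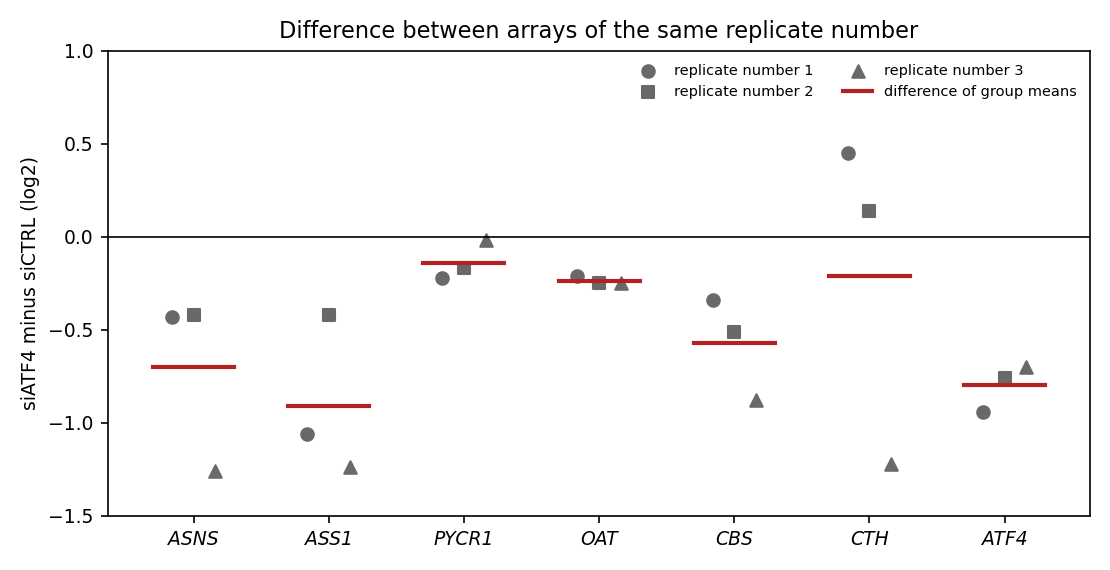
Difference siATF4 minus siCTRL on the log2 scale between arrays of the same replicate number (circles 1, squares 2, triangles 3), with the difference of group means as a red bar, for the 6 enzymes and ATF4. Number 3 gave the lowest value for ASNS, ASS1, CBS and CTH, the 3 values of OAT nearly coincide, and CTH lies on both sides of 0.

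The 4 members with their lowest difference in replicate number 3 were ASNS, ASS1, CBS and CTH, at -1.26, -1.24, -0.88 and -1.22. The ATF4 mRNA difference in that number was -0.70, against -0.94 and -0.76 in numbers 1 and 2, and no relation to it was tested. The siCTRL array of number 3 was the highest of the 6 arrays for the same 4 enzymes, and for ATF4. After each enzyme was set to its own mean, the average of the 6 came to 0.17, 0.01 and 0.51 on siCTRL replicates 1, 2 and 3 and -0.13, -0.26 and -0.30 on siATF4 replicates 1, 2 and 3. By that average the siATF4 arrays all lay below the siCTRL arrays, and siCTRL replicate 3 stood highest. Because the 6 were chosen with this comparison known, a separation by group follows from the choice, and nothing is read from it.

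The other enzymes of these pathways were listed by function and are described by counts and medians, with no test of a list. The medians lay between -0.06 and 0.07, against 0.01 over all tested genes. Of the asparagine and glutamate list 6 of 12 other genes were measured. Their median difference was 0.06, with 2 lower and 4 higher, and 0 passed limma's adjusted test in either direction. The asparagine-cleaving enzymes ASRGL1 and ASPG were at 0.38 (SE 0.37) and 0.23 (SE 0.13). By number ASRGL1 differed by 1.28, -0.14 and 0.01, so its difference came from number 1, where siATF4 read 5.34 and siCTRL 4.06. With siATF4, ASPG read 4.17, 4.16 and 4.38, against 4.11, 4.11 and 3.81 in the controls, so every siATF4 array was above, as for 3.30% of all tested genes, but close to the array medians. The glutamine synthetase GLUL was at -0.10 (SE 0.17).

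Of the arginine, urea cycle and polyamine list 19 of 23 other genes were measured, with a median difference of 0.06. Limma called 0 of them in either direction, and 6 had a lower and 13 a higher mean. The argininosuccinate lyase ASL, which takes the product of ASS1 on to arginine, was at 6.08, 5.43 and 5.64 on siATF4 replicates 1, 2 and 3, against 5.51, 5.26 and 5.62 in the controls. ASL was thus higher with siATF4 in each number, like 14.4% of all tested genes, by 0.25 on average (SE 0.19), with overlapping groups, while ASS1 was lower in each. GATM, the first enzyme of creatine synthesis, was at 0.32 (SE 0.18), and by number at 0.55, 0.10 and 0.30. AMD1, which makes the aminopropyl donor for polyamines, was at 0.25 (SE 0.16). Its readings were 9.71, 9.85 and 9.68 with siATF4, against 9.65, 9.67 and 9.18 in the controls, with no overlap but only 0.01 between the nearest arrays. The nitric oxide synthase NOS3, named after its values were seen, was the 1 gene of this list with all siATF4 arrays below (-0.14, SE 0.10), at levels of 3.41 to 3.67 that are below the array medians.

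Of the proline and ornithine list only 4 of 11 other genes were measured, with a median difference of 0.07, and 0 were called in either direction by limma. PYCR3, a cytosolic relative of PYCR1, was at 0.18 (SE 0.20), the dipeptidase PEPD, which releases proline from peptides, at -0.17 (SE 0.22), and PRODH2, an enzyme of hydroxyproline breakdown, at 0.07 (SE 0.10).

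Of the transsulfuration, methionine and glutathione list 16 of 28 other genes were measured, with a median difference of -0.06. Limma called 0 of them in either direction, and 10 had a lower and 6 a higher mean. The lowest differences were -0.49 (SE 0.56) for GGT5, a gamma-glutamyltransferase, -0.37 (SE 0.26) for SQOR and -0.32 (SE 0.24) for ETHE1, both of which oxidise sulfide in mitochondria. GGT5 read 4.46, 6.13 and 4.53 on siATF4 replicates 1, 2 and 3 and 6.08, 5.93 and 4.59 on siCTRL replicates 1, 2 and 3, so its difference came from number 1. Without overlap were MTRR, which reactivates methionine synthase (-0.11, SE 0.10), and MTR, methionine synthase itself (0.11, SE 0.10), in opposite directions. They were named after their values were seen. Over the 4 lists, the number of other genes at an unadjusted p below 0.05 was 0, where 1.46% of all tested genes reached that level, so the count is near the background and nothing is read from it.

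**Figure D3:**
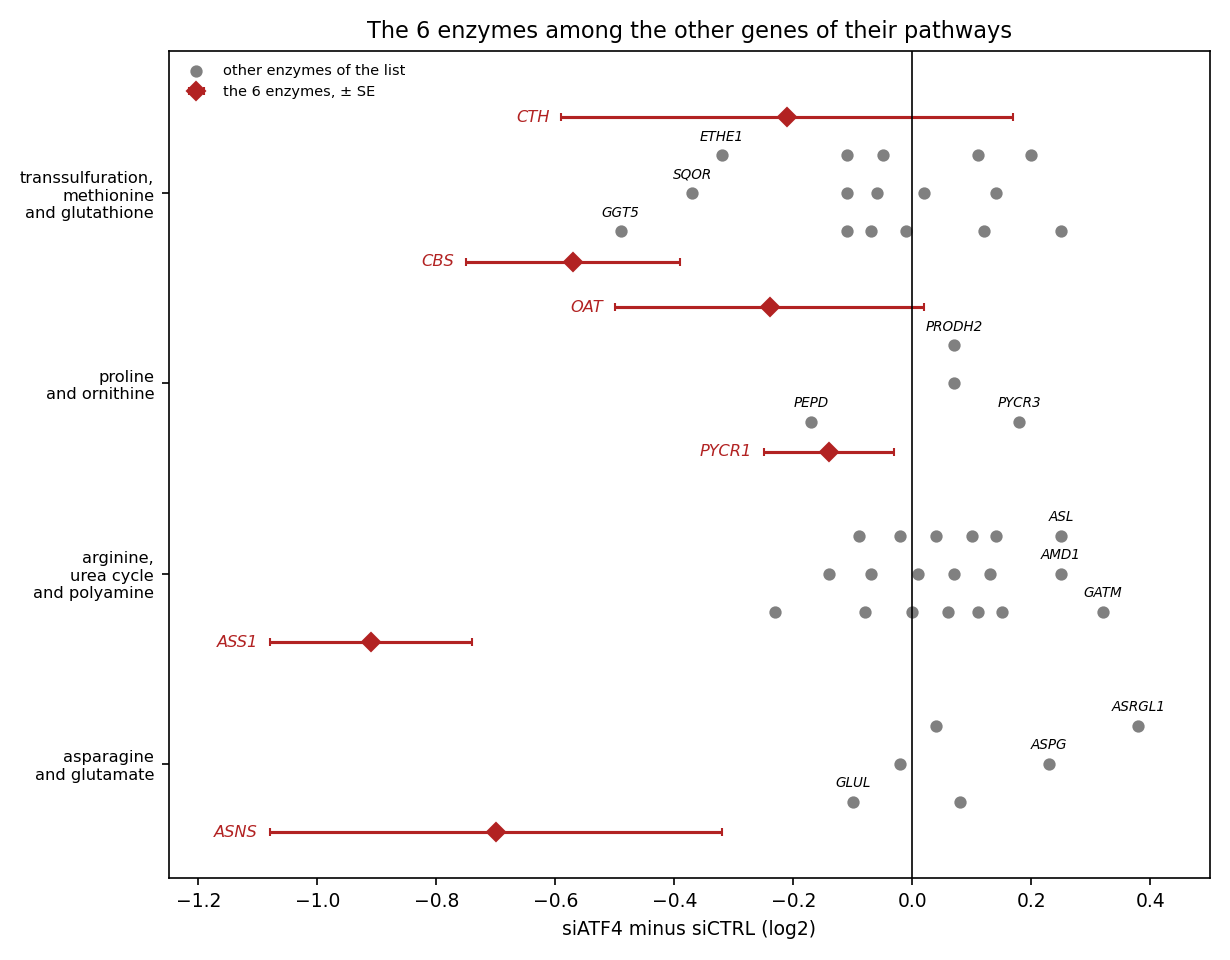
Difference of group means, siATF4 minus siCTRL (log2, x axis), for the 6 enzymes (red diamonds, bars ± the moderated SE, 3 arrays per group) and the other measured genes of each pathway list (grey points, spread vertically for legibility). The other genes lie between -0.49 and 0.38. ASNS, ASS1 and CBS lie below that range, at -0.70, -0.91 and -0.57, and OAT, CTH and PYCR1 within it, at -0.24, -0.21 and -0.14. The 6 enzymes were chosen with this comparison known, so their distance from the other genes is no test.

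Likeness of profile was measured as the root mean square (RMS) difference, in log2 over the 6 arrays, after each gene was set to its own mean. It is a description over 6 arrays that share replicate numbers, and says nothing of function. Genes picked in this way share the pattern of the enzyme by that choice. A high array or a lack of overlap that they have in common with it is therefore not read as a result. The genes most like ASNS among the 14883 others were TRIB3, a stress-induced pseudokinase (RMS difference 0.149), PMAIP1, a pro-death member of the BCL2 family (0.197), and PHGDH, the entry enzyme of serine synthesis (0.204). TRIB3 was at 5.19, 5.05 and 6.02 with siATF4, against 5.79, 5.82 and 7.05 in the controls, with the same high reading on siCTRL replicate 3 as ASNS.

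The genes most like ASS1 were MARS1, the cytosolic methionyl-tRNA synthetase (0.200), MT1F, a metallothionein (0.205), and ATF5, a transcription factor related to ATF4 (0.220). MARS1 was at 7.78, 8.02 and 8.02 with siATF4, against 8.56, 8.36 and 8.90 in the controls, without overlap. The genes most like CBS were AARS1, the cytosolic alanyl-tRNA synthetase (0.083), VPS4B, an ATPase of the ESCRT machinery (0.135), and VLDLR, a lipoprotein receptor (0.137). AARS1 was at 9.04, 8.63 and 9.01 with siATF4, against 9.45, 9.31 and 10.00 in the controls, again without overlap. The genes most like CTH were SESN2, a stress-induced inhibitor of mTORC1 (0.120), C5AR1, a complement receptor (0.160), and SARS1, the cytosolic seryl-tRNA synthetase (0.165). SESN2 shared the pattern of CTH, with 7.15 on siCTRL replicate 3 and 6.67 on siATF4 replicate 1 as its highest readings and 5.88 on siCTRL replicate 2 as its lowest.

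OAT was most like FZD2, a Wnt receptor (0.084), MRAS, a RAS-family GTPase (0.092), and the pseudogene OCLNP1 (0.097), all of which were lowest in replicate number 3 in both groups. PYCR1, being flat, was closest to the dim and flat DGAT2-DT (0.028), VWC2L (0.031) and GAS2L1P2 (0.033), with levels between 3.03 and 3.78. Among the 6 enzymes, CBS was the one nearest to ASNS (place 35 of 14883 genes), to ASS1 (place 49) and to CTH (place 341). OAT was far from ASNS (place 13697).

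**Figure D4:**
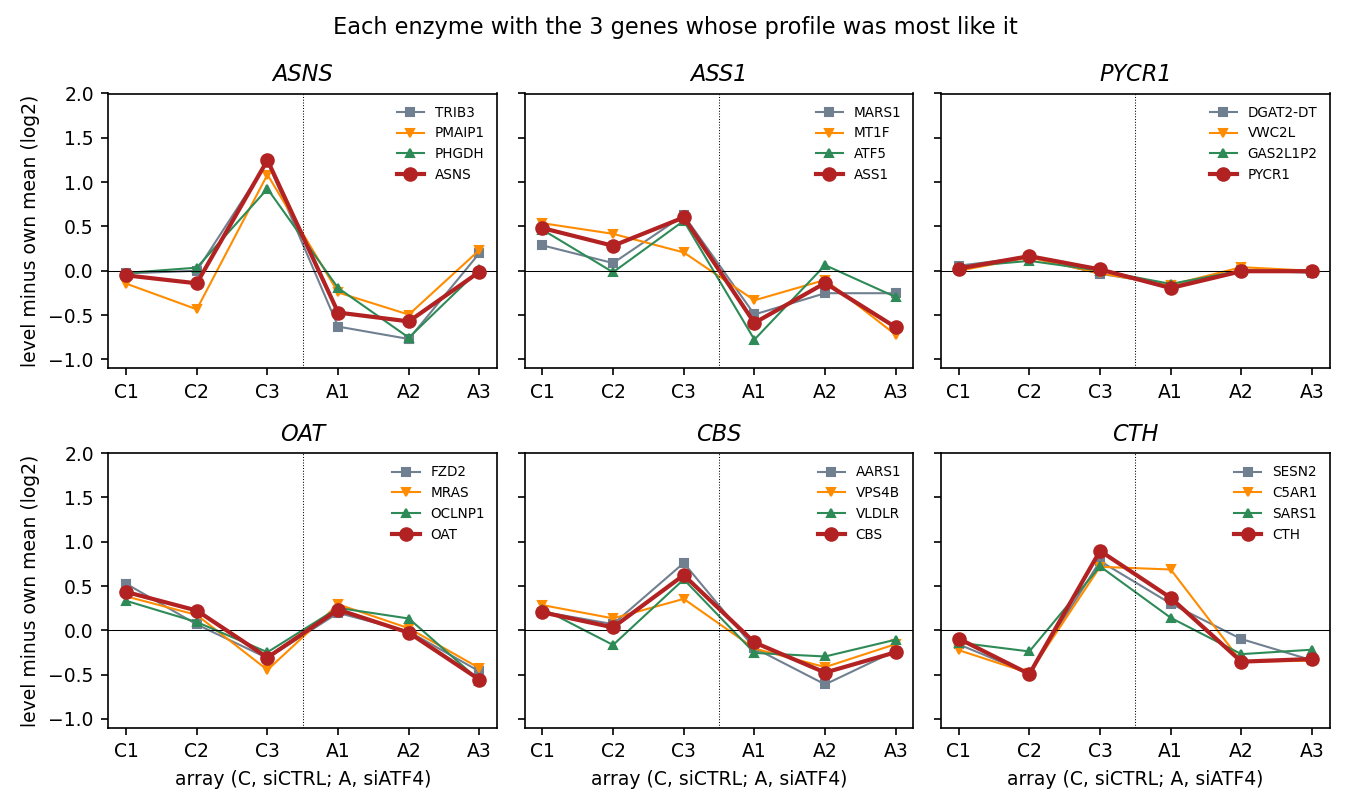
Level minus the gene's own mean (log2, y axis) on the 6 arrays (C1 to C3, siCTRL replicates 1 to 3, A1 to A3, siATF4 replicates 1 to 3) for each enzyme (red) and the 3 genes with the smallest RMS difference from it. ASNS and CTH peak at C3 with their neighbours, ASS1 and CBS drop at the siATF4 arrays, and OAT is lowest at C3 and A3.

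Of these 18 most similar genes 13 have a promoter window, and 2 of the 13 held TGATGNAA: MARS1, nearest to ASS1, and AARS1, nearest to CBS. They are shown to set them beside the ASNS match. The match is on the opposite strand, so the capitals read as its reverse complement, and both are RefSeq sequence of GRCh38.p14. That of MARS1 is from chr12:57488053-57488082, plus strand, where the match begins 4 bases before the transcript start and runs past it. That of AARS1 is from chr16:70289675-70289704, minus strand, with the match 187 to 180 bases before the start.
MARS1: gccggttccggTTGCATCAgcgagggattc
AARS1: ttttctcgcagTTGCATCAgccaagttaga
The share among all genes with windows is the 4.46% given above, and with so few genes nothing was read from the difference. A match in a window does not show that the factor binds there.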

How the data were processed

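Total RNA (100 ng) was labelled with biotin by an Affymetrix whole-transcript kit, per the labels' protocols. Deposited values, read as log2 from their range (1.91 to 14.2), cover 53617 features on 6 arrays. Per the submitters' processing notes Partek was used. Its version, the log base and how background and array differences were handled are not given in the sources used here, so the authors' values were taken as normalized. The array annotation names 16098 features with 1 symbol, 0 with several and leaves 37519 unnamed. All 16098 matched the GRCh38.p14 gene table (0 symbols changed). The brightest feature stood for a gene (779 genes had several), giving 14884 genes, with no filter.

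Groups were compared with limma 3.58.1 in R 4.3.3 (lmFit, eBayes, group as the only term, Benjamini-Hochberg over all genes, threshold 0.05), and SE is the moderated one. This fit was run on simulated data with independent noise, no replicate-number structure and planted differences larger than those of the enzymes. That run does not show how the fit performs at the differences reported here. The enzymes and lists were chosen with earlier results of these data known. From each list the 3 genes with the largest differences were named, and for each enzyme the 3 most similar genes. As a check of pairing, deviations from group means correlated across genes at r = 0.20, 0.40 and 0.62 for replicate numbers 1, 2 and 3. Each was over 0.1, so values by number and a block were used, on the basis of the data. For siATF4 replicate 2, r with siCTRL replicate 1 was higher still (0.48). The number of arrays limits the precision (median SE 0.15). Detection above background was not analysed here. Alternatives were quantile normalization, equal medians, the replicate block, a trended robust prior, a filter on dim genes, the mean of a gene's features, all features tested, and each array left out.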

Additional observations from a re-analysis of the deposited data

How the results depend on the processing

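The alternatives gave 0 genes called by limma throughout, with 152 to 464 of 14884 genes at an unadjusted p below 0.05, 121 of 9922 genes with the filter on dim genes and 1028 of all 53617 features. The replicate number as a block cannot change the differences, since each number holds 1 array of each group, and it acts on the SE only. With it 0 genes were called, as without it, so no call changed. With each array left out, ASNS ranged from -0.95 to -0.25, ASS1 from -1.06 to -0.82 and CBS from -0.70 to -0.41. OAT ranged from -0.45 to -0.02, PYCR1 from -0.17 to -0.07 and ATF4 from -0.91 to -0.71. The count of enzymes without overlap was 3, or 4 without siATF4 replicate 3. With an array fewer a lack of overlap is easier to reach, and the share of all genes was not counted there, so nothing is read from the 4. CTH ranged from -0.51 to 0.19, and turned to 0.19 without siCTRL replicate 3. The median of the other asparagine and glutamate genes, 0.06, turned to 0.00 (just below zero) without siATF4 replicate 2 and to -0.02 without siCTRL replicate 3, and reached 0.17 without siCTRL replicate 1. The other 3 list medians kept their sign under these alternatives. Without siCTRL replicate 3, though, the arginine, urea cycle and polyamine median went from 0.06 to 0.01. The transsulfuration, methionine and glutathione median went from -0.06 to -0.01. Quantile normalization left 2 enzymes without overlap in place of 3, and the share of all genes was not counted with it. No enzyme changed sign with it or with equal array medians.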
